A study of Mus musculus with 9 samples.

Results

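Carbonic anhydrase genes were examined in B16 tumour tissue, a transplantable mouse melanoma, from mice treated with PC61 and from mice given PBS. Of the 10 genes considered (Car2, Car3, Car4, Car6, Car8, Car9, Car11, Car12, Car13 and Car14), 7 were measured, by 11 of the 20190 probes detected in the series. A probe was taken for a gene by the symbol in the platform annotation, and was kept if its detection p, the chance of such a signal from background, was under 0.05 on at least 4 arrays. Car4, Car6 and Car8 had no probe under their symbol in the annotation used here and were not analysed here. All 11 annotated probes passed this limit, and the probe nearest to it was that of Car2, detected on 6 of the 9 arrays. The annotation names only probes that the authors had kept in their own filtered table, so passing the limit is not a result about the family.

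The PC61 group held 4 samples and the PBS group 5, each on 1 Illumina BeadChip array. All came from C57/Bl6 mice aged 8 weeks, with tumour tissue taken at day 14 after inoculation. PC61 is an anti-CD25 antibody, known as a means of depleting regulatory T cells, and PBS is its vehicle control. The sources used here do not give the dose or timing of the antibody. The labels give a replicate number but do not say that each sample is a separate mouse, so the spread behind the p-values is that between these samples and may be technical.

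Carbonic anhydrases are zinc enzymes that interconvert carbon dioxide and bicarbonate with release of a proton, and so set pH inside and outside the cell. Car2, Car3 and Car13 are cytosolic. Car9, Car12 and Car14 cross the plasma membrane with the catalytic domain outside the cell, and Car11 is a carbonic anhydrase-related protein without catalytic activity. In human tumours the Car9 and Car12 orthologues are known as genes induced by low oxygen, through the hypoxia-inducible factors (HIF), which bind DNA at the cores ACGTG and GCGTG. Car3 is known from skeletal muscle and fat.

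The stretches of 250 bases before the transcription start are shown for Car9, Car12 and Car14 because these membrane-bound members moved in different directions in PC61 tumours. They are RefSeq sequences of build GRCm38.p6, at chr4:43506776-43507025 (plus strand) for Car9, chr9:66713436-66713685 (plus strand) for Car12 and chr3:95904686-95904935 (minus strand) for Car14, each written 5′ to 3′ along the gene. Capitals mark the letters ACGTG or GCGTG on either strand, which read CACGT or CACGC when they lie on the other one.
Car9: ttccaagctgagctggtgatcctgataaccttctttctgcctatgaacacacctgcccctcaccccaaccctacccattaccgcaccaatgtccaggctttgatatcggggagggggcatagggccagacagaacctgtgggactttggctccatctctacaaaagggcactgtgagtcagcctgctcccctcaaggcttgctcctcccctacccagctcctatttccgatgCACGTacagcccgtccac
Car12: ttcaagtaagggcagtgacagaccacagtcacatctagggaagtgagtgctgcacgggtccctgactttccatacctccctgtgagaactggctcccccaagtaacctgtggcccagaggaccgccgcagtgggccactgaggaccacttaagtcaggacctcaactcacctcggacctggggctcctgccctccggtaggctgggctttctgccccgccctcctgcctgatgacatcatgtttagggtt
Car14: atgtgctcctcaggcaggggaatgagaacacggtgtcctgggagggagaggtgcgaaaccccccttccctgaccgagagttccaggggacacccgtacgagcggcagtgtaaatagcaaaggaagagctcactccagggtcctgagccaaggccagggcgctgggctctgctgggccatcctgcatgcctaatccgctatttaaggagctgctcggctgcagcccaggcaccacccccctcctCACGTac

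The Car9 stretch held ACGTG once, on the strand opposite to the gene, with its first base 18 bases before the start. The Car14 stretch also held it once, 7 bases before the start, and the Car12 stretch held neither core. Of 32851 such stretches over all genes, 38.6% held one of the cores, 16.6% ACGTG and 28.2% GCGTG. A match is a description of the letters and not a site shown to be bound. Sequences were matched for 4 of the 7 measured genes, and the other match, Car11, is not shown.

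Between 18572 and 20742 probes were detected per array. PC61 replicate 4 stood apart, with a median correlation of 0.87 with the other arrays over all detected probes, against 0.94 to 0.97 for the other 8 arrays. Foxp3, whose product defines regulatory T cells, was at 8.73 ± 0.18 log2 units in PC61 and 9.05 ± 0.24 in PBS (SD, n = 4 and 5), and the difference of -0.32 did not pass (limma adjusted p = 0.231). Il2ra, the gene of the antibody's target, was not analysed here. Of the 14 melanocyte genes listed as a check of the tissue, 13 were measured, and Tyrp1 and Dct, enzymes of melanin synthesis, were detected on every array.

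The family split into genes that fell, genes that rose and genes with small differences that did not pass. Of the 11 probes, 7 passed a Benjamini-Hochberg adjusted p of 0.05 in limma, where 20.0% of all detected probes did. All 3 Car9 probes and 1 of the 2 Car14 probes fell, against 9.28% of all probes. Both Car12 probes and the Car3 probe rose, against 10.7% of all probes. The probes of Car2, Car11 and Car13 did not pass. In 6 of the 11 probes the groups did not overlap, which held for 17.6% of all probes. By gene, 4 of 7 had a passing probe, against 27.7% of all 10096 named genes, and 3 of 7 passed by their brightest probe, against 24.7%. Probes of 1 gene share their target, so the 3 Car9 probes are not 3 separate results.

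**Figure D1:**
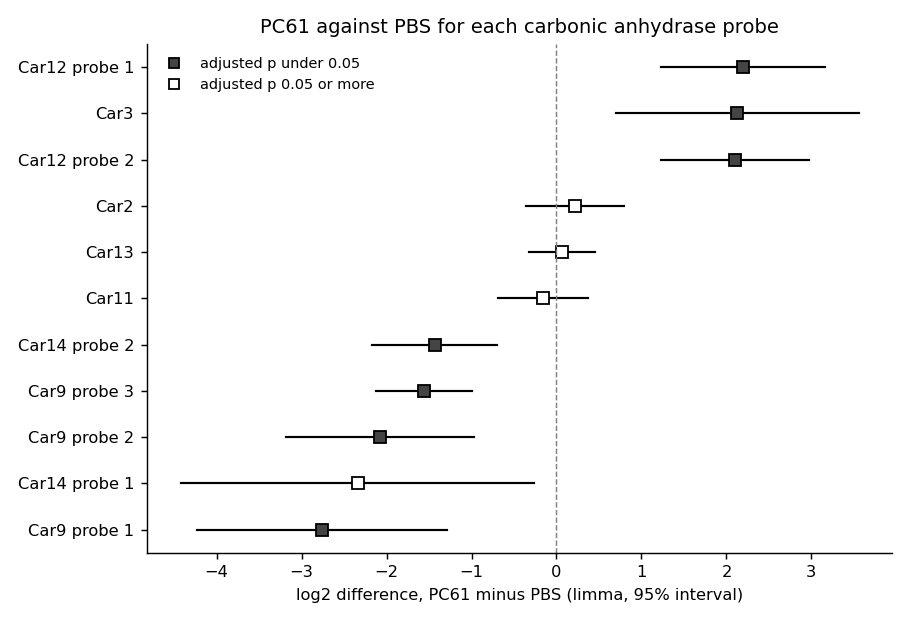
Log2 difference of PC61 minus PBS for each of the 11 carbonic anhydrase probes, with the unadjusted 95% interval from limma. Filled squares passed an adjusted p of 0.05. The Car12 and Car3 probes lie near 2 on the right, the Car9 and Car14 probes between -2.76 and -1.43 on the left, and Car2, Car13 and Car11 near 0.

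Car9, the membrane enzyme used as a marker of tumour hypoxia, was lower in PC61 by all 3 of its probes. The brightest, probe 1, read 8.52, 8.93, 8.30 and 4.88 log2 units on PC61 replicates 1 to 4, against 10.47, 10.56, 9.68, 10.89 and 10.49 on PBS replicates 1 to 5. Every PC61 array lay below every PBS array, and PC61 replicate 4 lay far below the other 3. The means were 7.66 ± 1.87 in PC61 and 10.42 ± 0.45 in PBS (SD, n = 4 and 5), a difference of -2.76 ± 0.67 (SE, limma adjusted p = 0.0200), or 6.77-fold lower in PC61. In bulk tissue, fewer cells that express a gene and less of its RNA per cell cannot be told apart.

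The dimmer Car9 probes gave the same direction with smaller differences. Probe 2 read 6.66, 7.19, 5.99 and 4.49 in PC61, against 8.42, 8.15, 6.95, 8.48 and 8.80 in PBS. PC61 replicate 2 lay inside the PBS range here, above PBS replicate 3. Its difference was -2.08 ± 0.51 (SE, limma adjusted p = 0.0199). Probe 3 read 5.41, 5.67, 5.05 and 4.51 in PC61, against 6.78, 6.85, 6.16, 6.79 and 7.01 in PBS, with no overlap. Its difference was -1.56 ± 0.26 (SE, limma adjusted p = 0.0128). Neither probe was detected on PC61 replicate 4, and probe 1 was detected there, with a detection p of 0.0438, so background limits the fall on that array. All 3 probes kept the same order of the PC61 arrays, with replicate 2 highest, then 1, 3 and 4, and all 3 had their lowest PBS value on replicate 3.

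Without PC61 replicate 4 the Car9 differences were -1.83, -1.55 and -1.34 for probes 1, 2 and 3, with limma adjusted p of 0.0131, 0.0281 and 0.0168. Probe 3 passed whichever of the 9 arrays was left out. Without PC61 replicate 3 the adjusted p was 0.0503 for probe 1 and 0.0597 for probe 2, and without PBS replicate 5 it was 0.0519 for probe 2.

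**Figure D2:**
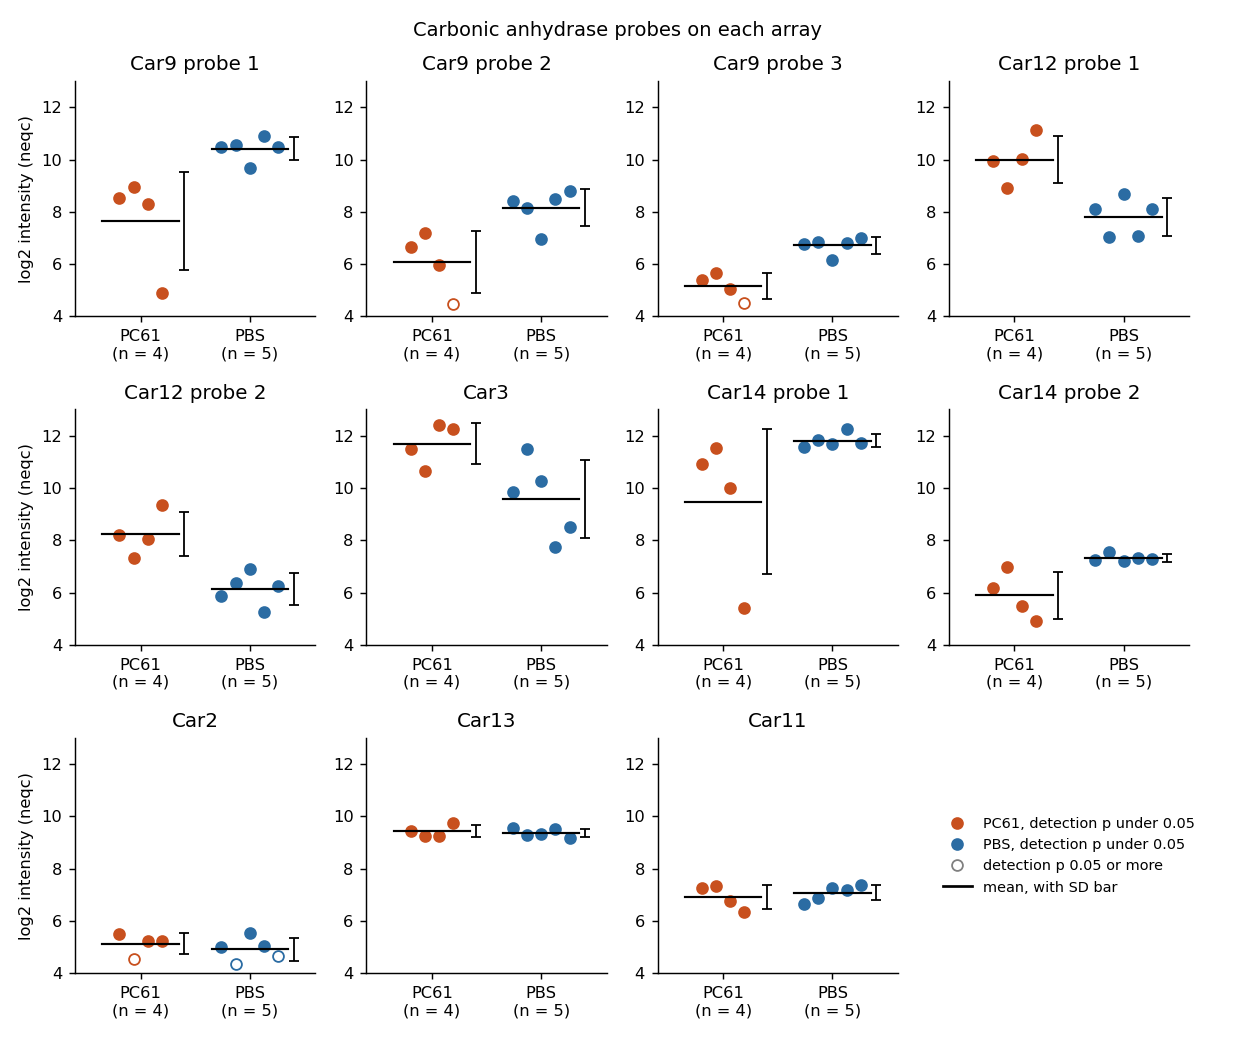
Log2 intensity after neqc normalization on each array for the 11 probes, with PC61 left and PBS right in each panel. Lines are group means, bars are SD, and open points were not detected. The PC61 points lie below all PBS points for Car9 probes 1 and 3 and for both Car14 probes, and above all of them for both Car12 probes.

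Car12, the other membrane enzyme linked to hypoxia, was higher in PC61 by both probes. Probe 1 read 9.96, 8.90, 10.03 and 11.12 in PC61, against 8.10, 7.05, 8.70, 7.07 and 8.11 in PBS. The lowest PC61 array, replicate 2, was 0.20 above the highest PBS array, replicate 3. The means were 9.999 ± 0.91 in PC61 and 7.81 ± 0.72 in PBS (SD, n = 4 and 5), a difference of 2.19 ± 0.44 (SE, limma adjusted p = 0.0139), or 4.57-fold higher. Probe 2 read 8.20, 7.32, 8.06 and 9.36 in PC61, against 5.86, 6.37, 6.91, 5.27 and 6.23 in PBS. The groups did not overlap here either, and the difference was 2.10 ± 0.40 (SE, limma adjusted p = 0.0128), or 4.30-fold. Both probes passed whichever array was left out, with differences of 1.82 to 2.56 for probe 1 and 1.73 to 2.41 for probe 2. These were the only member probes besides Car9 probe 3 to pass in all 9 such fits.

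Car9 and Car12 lay on opposite sides of 0. The unadjusted 95% interval of the difference was -4.23 to -1.29 for Car9 probe 1 and 1.23 to 3.16 for Car12 probe 1. PC61 replicate 4 was both the array with the least Car9 and the array with the most Car12. Among the other PC61 arrays, replicate 2 had the most Car9 and the least Car12.

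The wider hypoxia response list was lower on balance. Of 20 listed genes 16 were measured, 5 fell and 2 rose, where 10.2% of the 10096 named genes fell and 14.5% rose. The median difference was -0.53, against -0.05 over all named genes. Slc2a1, the glucose transporter GLUT1, averaged 9.92 ± 0.39 in PC61 and 10.91 ± 0.25 in PBS, a fall of -0.99 ± 0.22 (SE, limma adjusted p = 0.0155). Ldha, the lactate dehydrogenase of glycolysis, fell by 0.72 ± 0.22 (limma adjusted p = 0.0389). The glycolytic kinase Pgk1 was at -1.35 ± 0.45 and the angiogenic factor Vegfa at -0.68 ± 0.27, with limma adjusted p of 0.0516 and 0.0935.

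The genes of this list that rose, as Car12 did, were Egln3, a HIF prolyl hydroxylase, and Ndrg1, a stress-induced gene. They are named here after their values were seen. Egln3 rose by 1.72 ± 0.39 (SE, limma adjusted p = 0.0164) and Ndrg1 by 0.94 ± 0.25 (limma adjusted p = 0.0256), each with no overlap between groups. The list mean, relative to the PBS mean, ran from -0.56 to -0.23 on the PC61 arrays and from -0.22 to 0.12 on the PBS arrays. Without PC61 replicate 4 its median was -0.46, with 2 genes lower and 1 higher. Of all probes 13.9% passed in that fit, against 20.0% with all arrays.

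Of the 6 genes listed for hypoxia signalling 5 were measured, and Vhl, which marks HIF proteins for degradation, fell by 1.03 ± 0.25 (SE, limma adjusted p = 0.0195). Hif1a, the oxygen-regulated subunit, was at -0.81 ± 0.34 (limma adjusted p = 0.105), and its partner Arnt at -0.24 ± 0.29 (limma adjusted p = 0.592). The HIF hydroxylases Hif1an and Egln2 were at -0.34 and -0.43, with limma adjusted p of 0.307 and 0.210. The median of these 5 genes was -0.43.

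Car14, a membrane-bound enzyme with its active site outside the cell, was low in PC61 by both probes, of which 1 passed. Probe 2, the dimmer, read 6.16, 6.98, 5.50 and 4.92 in PC61, against 7.26, 7.56, 7.19, 7.31 and 7.30 in PBS. The PBS arrays lay within 0.37 log2 units of each other and above all PC61 arrays. The difference was -1.43 ± 0.34 (SE, limma adjusted p = 0.0182), or 2.70-fold lower in PC61. Probe 1 read 10.92, 11.52, 10.01 and 5.42 in PC61, against 11.57, 11.83, 11.70, 12.24 and 11.71 in PBS. The groups did not overlap, but the PC61 values spread over 6.11 log2 units, with replicate 4 far below the rest, and the difference of -2.34 ± 0.95 did not pass (limma adjusted p = 0.101).

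The Car14 calls changed in some fits that left out 1 array. Without PC61 replicate 4, probe 1 was at -0.99 and passed (limma adjusted p = 0.0475), as it did without PC61 replicate 2 (-3.03, limma adjusted p = 0.0304). Probe 2 passed in 8 of the 9 such fits, and was at -1.11 without PC61 replicate 4 (limma adjusted p = 0.0287). It did not pass without PC61 replicate 3 (-1.30, limma adjusted p = 0.0607). In that fit 4.81% of all probes passed, against 20.0% with all arrays.

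Melanocyte markers, which the tumour cells bear, ran beside Car9 and Car14 across the arrays. Of the 13 melanocyte genes measured 3 fell and 1 rose, where 10.2% of all named genes fell and 14.5% rose. Their median difference was -1.86. The list mean relative to the PBS mean was -0.89, -0.26, -1.41 and -4.04 on PC61 replicates 1 to 4, against -0.33 to 0.35 on the PBS arrays. On the same PC61 arrays Car14 probe 1 was at -0.89, -0.29, -1.80 and -6.39, and Car9 probe 1 at -1.89, -1.49, -2.12 and -5.54. The order of the PC61 arrays was the same in all of these. The hypoxia response list mean kept that order too, at -0.31, -0.23, -0.37 and -0.56 on PC61 replicates 1 to 4. Its lowest PBS value was -0.22 on replicate 3, the lowest PBS array of Car9 probe 1 as well. The mean of the transport genes described below ran in that order also, at -0.16, 0.18, -0.37 and -1.13. The hypoxia signalling list mean did not keep it, at -0.78, -0.63, -0.45 and -0.43 on PC61 replicates 1 to 4. Car9 probe 1 was below the melanocyte list mean on each PC61 array, with differences of -1.50 to -0.71 log2 units. Car14 probe 1 was within 0.03 of the melanocyte list mean on PC61 replicates 1 and 2. It differed from that mean by -0.39 and -2.35 on PC61 replicates 3 and 4. The part of the melanocyte, hypoxia response and transport genes in these results was not tested.

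Mitf, the melanocyte transcription factor, fell by 1.29 ± 0.29 (SE, limma adjusted p = 0.0164), and Tyr, the tyrosinase of melanin synthesis, by 1.99 ± 0.46 (limma adjusted p = 0.0174). Tyrp1 was at -2.22 ± 0.84 and Dct at -0.89 ± 0.58, with limma adjusted p of 0.0804 and 0.295. The other gene that fell was the melanocortin receptor Mc1r (-2.22), and the one that rose was the endothelin receptor Ednrb (1.13), both named after their values were seen. Tyr and Mc1r were detected on 3 of the 4 PC61 arrays. Without PC61 replicate 4 the list median was -1.03. In limma 6 genes were then lower and 0 higher, and at an unadjusted p under 0.05 9 were lower and 1 higher. With all 9 arrays 11 were lower and 1 higher at that unadjusted p. Of all 20190 probes 13.9% passed without PC61 replicate 4, and 6545 had an unadjusted p under 0.05. With all arrays these values were 20.0% and 7241.

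**Figure D3:**
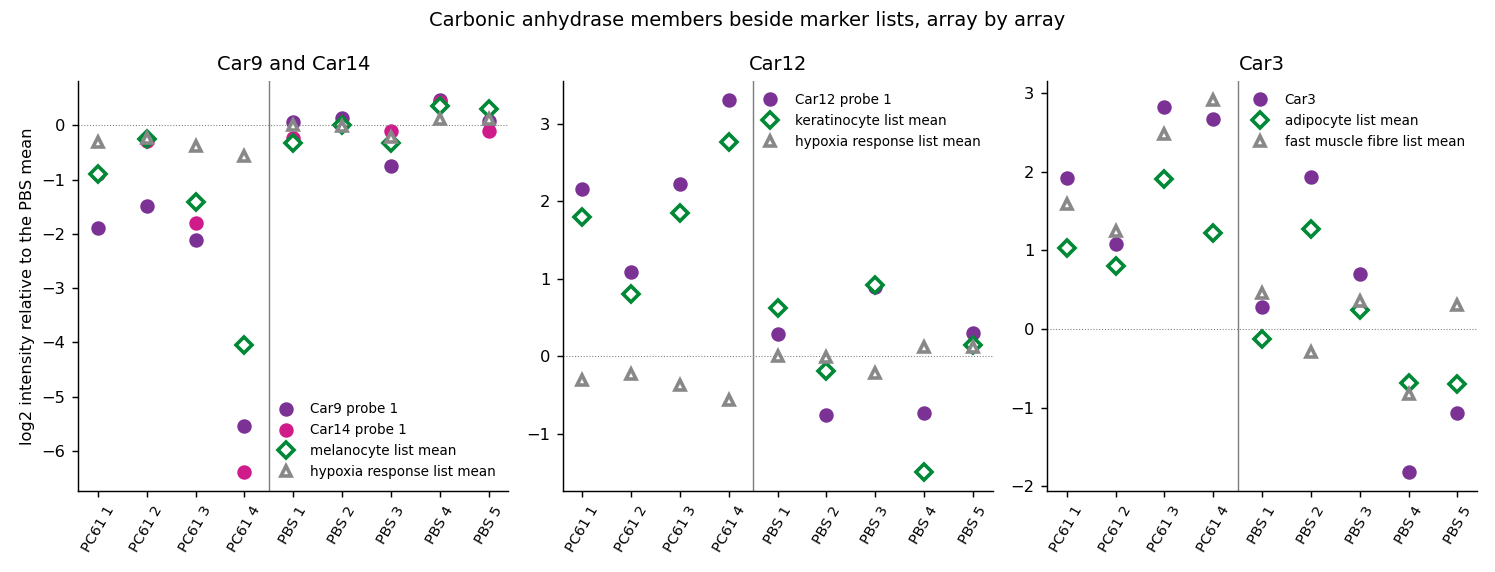
Log2 intensity relative to the PBS mean on each of the 9 arrays, PC61 left of the line and PBS right of it, for Car9 and Car14, Car12 and Car3 (filled circles) beside the mean of marker lists (open symbols). Car9 and Car14 are lowest on PC61 replicate 4, where the melanocyte list mean is -4.04, Car12 is highest there, where the keratinocyte list mean is 2.76, and Car3 has its highest PBS value on replicate 2, where the adipocyte list mean is 1.28.

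Markers of skin and of skeletal muscle ran beside Car12. Of the 13 keratinocyte genes listed 10 were measured and 8 rose, where 14.5% of all named genes did. Their median difference was 1.95. The list mean relative to the PBS mean was 1.79, 0.80, 1.84 and 2.76 on PC61 replicates 1 to 4, and 0.62, -0.19, 0.92, -1.49 and 0.14 on PBS replicates 1 to 5. Car12 probe 1 was at 2.15, 1.09, 2.22 and 3.31 on the PC61 arrays, and at 0.29, -0.75, 0.89, -0.74 and 0.31 on the PBS arrays. The order of the PC61 arrays was the same in both, and PBS replicate 3 was the highest PBS array in both. The lowest PBS array was replicate 2 for Car12 probe 1 and replicate 4 for the list. This order of the PC61 arrays is the exact reverse of that of Car9 probe 1 and the melanocyte list mean. The matches over these 4 arrays are therefore not separate results. Car12 probe 2 had the same highest and lowest PC61 arrays, with replicate 1 above replicate 3. The general skeletal muscle list mean was 1.63, 0.85, 1.97 and 2.30 on PC61 replicates 1 to 4, in the same order, and was also highest among the PBS arrays on replicate 3, at 0.50. The fast muscle fibre list mean was 1.59, 1.24, 2.48 and 2.92 on the PC61 arrays, again in that order, and was highest among the PBS arrays on replicate 1, at 0.46. The slow muscle fibre list mean, at 1.15, 0.59, 1.28 and 1.35 on the PC61 arrays, kept that order too, and its highest PBS value was 0.26 on replicate 3. The part of the keratinocyte and muscle markers in the Car12 result was not tested.

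The basal keratins Krt5 and Krt14 rose by 2.40 ± 0.55 and 1.14 ± 0.34 (SE, limma adjusted p = 0.0169 and 0.0387). The suprabasal Krt1 was at 2.04 ± 0.71 (limma adjusted p = 0.0613), and its partner Krt10 rose by 1.05 ± 0.34 (limma adjusted p = 0.0475). Without PC61 replicate 4, 3 of the 10 keratinocyte genes passed, and the list median was 1.495. All 10 were then higher at an unadjusted p under 0.05. In that fit 13.9% of all probes passed, against 20.0% with all arrays.

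Car3, the cytosolic enzyme of muscle and fat, was higher in PC61 with a wide spread in both groups. It read 11.49, 10.66, 12.40 and 12.25 in PC61, against 9.85, 11.51, 10.27, 7.75 and 8.50 in PBS. PC61 replicates 1 and 2 lay inside the PBS range, which PBS replicate 2 extended upward. The means were 11.70 ± 0.80 in PC61 and 9.57 ± 1.48 in PBS (SD, n = 4 and 5), a difference of 2.12 ± 0.66 (SE, limma adjusted p = 0.0416), or 4.36-fold higher. The call passed without PC61 replicate 2, PBS replicate 2 or PBS replicate 3, and in none of the other 6 such fits. The adjusted p was 0.0716, 0.118 and 0.0804 without PC61 replicates 1, 3 and 4, and 0.0627, 0.0812 and 0.0968 without PBS replicates 1, 4 and 5. The difference itself stayed between 1.67 and 2.61 in all 9 fits.

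**Figure D4:**
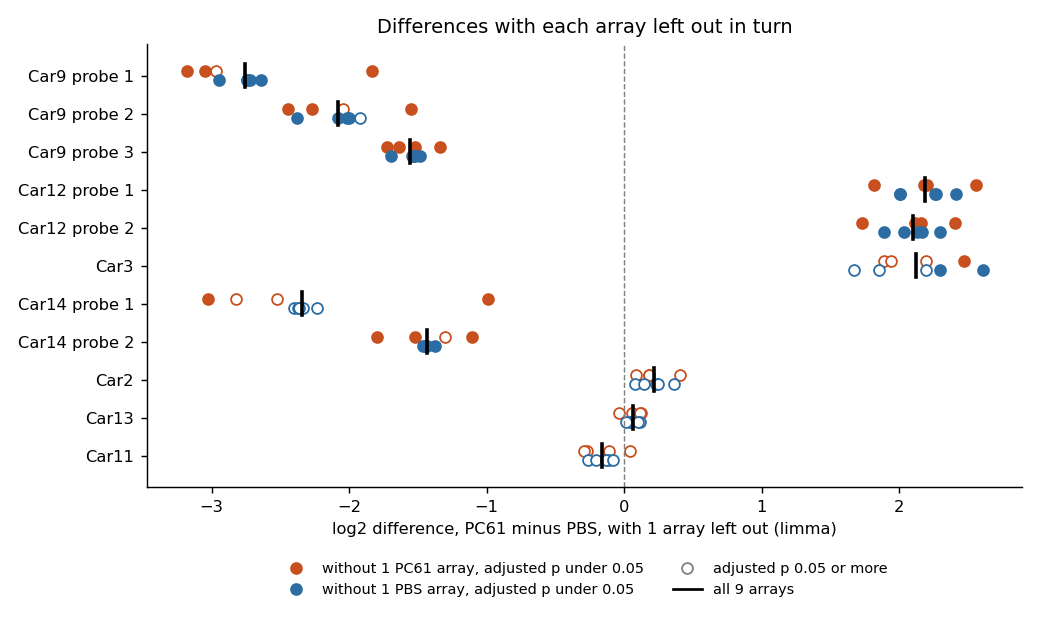
Log2 difference of PC61 minus PBS for each probe with 1 array left out at a time (circles, coloured by the group of the array left out, filled where the adjusted p was under 0.05), beside the difference over all 9 arrays (black lines). Car12 probes 1 and 2 and Car9 probe 3 stayed past the threshold throughout, Car3 in 3 of the 9 fits, and Car14 probe 1 in 2.

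Muscle and fat markers were listed because Car3 is known from both tissues. All 9 measured genes of the fast muscle fibre list rose, where 14.5% of all named genes did. Their median was 2.09, and among them were the myosins Myh4 (2.20 ± 0.44, SE, limma adjusted p = 0.0137) and Myh1 (2.14 ± 0.59, limma adjusted p = 0.0294). The troponins Tnnt3 and Tnni2 rose by 2.02 and 1.84. Of 8 general skeletal muscle genes 6 rose (median 1.97), among them Ckm, muscle creatine kinase (2.49 ± 0.34, limma adjusted p = 0.0122), Acta1 (1.99), Des (1.44) and Myoz1 (1.94). Of the slow muscle fibre list, the fibre type with the most Car3 in rodent muscle, only 3 of 8 genes were measured. Mb, the myoglobin gene, rose by 2.14 ± 0.38 and Tnnt1 by 1.10 ± 0.30 (SE, limma adjusted p = 0.0128 and 0.0272), and Atp2a2 was at 0.03.

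In the adipocyte list 8 of 12 genes were measured and 2 rose, where 14.5% of all named genes did. The median was 1.23. Adipoq, the adiponectin gene, was at 1.61 ± 0.57 (SE, limma adjusted p = 0.0638), and the lipid droplet genes Plin1 and Cidec at 0.77 and 1.57 (limma adjusted p = 0.108 and 0.0913). Lep, the leptin gene, rose by 1.68 ± 0.44 (limma adjusted p = 0.0238). The other gene that rose was Plin4 (1.45), named after its value was seen. All 8 were higher at an unadjusted p under 0.05, as were 2208 of the 10096 named genes.

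Within the PBS group the array with the most Car3 had the highest adipocyte list mean, and the 2 arrays with the least Car3 had the 2 lowest. PBS replicate 2 had the most Car3 (1.93 relative to the PBS mean) and the highest adipocyte list mean (1.28). The fast and general muscle list means on that array were -0.29 and -0.33. The slow muscle fibre list mean there was 0.14, below its 0.19 and 0.26 on PBS replicates 1 and 3. PBS replicates 4 and 5 had the least Car3 (-1.82 and -1.08), adipocyte means of -0.69 each, and fast muscle means of -0.83 and 0.30. The slow muscle mean was also lowest on these PBS arrays, at -0.42 and -0.17. Within the PC61 group replicate 3 had the most Car3 and the highest adipocyte mean (2.82 and 1.91). The fast, general and slow muscle means were highest on PC61 replicate 4 (2.92, 2.30 and 1.35). The part of either tissue in the Car3 result was not tested.

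The remaining members showed small differences. Car13, a cytosolic enzyme, read 9.45, 9.26, 9.27 and 9.74 in PC61, against 9.56, 9.27, 9.32, 9.52 and 9.16 in PBS. The groups overlapped almost fully, at 9.43 ± 0.23 and 9.37 ± 0.17 (SD, n = 4 in PC61 and 5 in PBS). The difference of 0.06 had a 95% interval of -0.33 to 0.45 (limma adjusted p = 0.831), the narrowest interval of the 11 probes. It was the only member probe whose interval, on either side, stayed below 0.5.

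Car11, the inactive related protein, read 7.25, 7.33, 6.78 and 6.33 in PC61, against 6.67, 6.90, 7.28, 7.17 and 7.39 in PBS. The difference was -0.16, with a 95% interval of -0.69 to 0.37 (limma adjusted p = 0.682), and was 0.04 without PC61 replicate 4. Car2, the fast cytosolic enzyme of red blood cells and osteoclasts, read 5.52, 4.57, 5.24 and 5.23 in PC61, against 5.01, 4.38, 5.54, 5.07 and 4.66 in PBS. It was near background, detected on 3 of 4 PC61 and 3 of 5 PBS arrays, and differed by 0.21 with a 95% interval of -0.36 to 0.79 (limma adjusted p = 0.600). Differences within these intervals are not excluded by these arrays.

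Car13, Car1, Car3 and Car2 are consecutive protein-coding genes on mouse chromosome 3 in the RefSeq annotation. Of the 3 measured neighbours only Car3 passed, and the difference between Car3 and its neighbours was not tested. Of the family genes that were not among the 10 considered, Car5b, a mitochondrial enzyme, was measured, and its brightest probe was at 0.58 ± 0.49 (SE, limma adjusted p = 0.420).

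Of the measured erythroid, macrophage and osteoclast markers, listed because Car2 is known from red blood cells and osteoclasts, 0 passed in limma. Of all 10096 named genes 24.7% passed. At an unadjusted p under 0.05 the counts were 0 erythroid genes, 1 macrophage or osteoclast gene and, in the T cell list, where 0 passed too, 0 genes. Of the 10096 named genes, 2208 were higher and 2048 lower at that unadjusted p. The erythroid list had 3 of 10 genes measured and a median of -0.33, with Hba-a1, Hbb-bt and Alas2 at -0.49, -0.33 and 0.12 (limma adjusted p from 0.308 to 0.782). The macrophage and osteoclast lineage list had 6 of 10 genes measured and a median of 0.52. Its first genes, Adgre1, Csf1r, Mrc1 and Cd163, were at -0.0049, 0.46, 0.57 and 0.64, with limma adjusted p from 0.162 to 0.992. Ctsk, the 1 gene at an unadjusted p under 0.05, was at 1.33 ± 0.43 (SE, limma adjusted p = 0.0505). Oscar was at 0.11 (limma adjusted p = 0.782), and both were named after their values were seen. The T cell list (6 of 10 measured) had a median of 0.21, with Cd3e, Cd3d, Cd3g and Cd2 at 0.23, -0.46, 0.27 and 0.66 (limma adjusted p from 0.163 to 0.649). In the endothelium list, 9 of 10 measured with a median of 0.08, Tek rose by 0.79, Pecam1 and Cdh5 were at 0.49 and -0.0034, and Tie1 was at 0.08. Emcn, named after its value was seen, fell by 0.68 (limma adjusted p = 0.0490).

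Carbonic anhydrases work beside transporters that move bicarbonate, protons and lactate across the membrane. Of 17 such genes listed 8 were measured, 1 rose and 2 fell, where 14.5% of all named genes rose and 10.2% fell. Slc4a1, the anion exchanger known from red blood cells, averaged 8.52 ± 0.91 in PC61 and 6.76 ± 0.66 in PBS, with no overlap, a rise of 1.76 ± 0.43 (SE, limma adjusted p = 0.0199). The bicarbonate cotransporter Slc4a4 fell by 1.43 ± 0.45 and Slc4a8 by 1.80 ± 0.58 (limma adjusted p = 0.0459 and 0.0475). Both had at least 1 PC61 array inside the PBS range, and neither passed without PC61 replicate 4. In that fit 0 genes of the list passed as lower in limma and 2 were lower at an unadjusted p under 0.05. Of all 20190 probes 13.9% passed there, and 6545 had an unadjusted p under 0.05.

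The other 5 transport genes did not pass. The anion exchangers Slc4a2 and Slc4a3 were at -0.74 and -0.35 (limma adjusted p = 0.0695 and 0.282), and Slc26a6 at -0.08 (limma adjusted p = 0.855). Slc16a3, the lactate exporter MCT4 and itself a hypoxia-linked gene, was at -0.78 ± 0.52 (limma adjusted p = 0.307), and was not detected on 1 PC61 array. Slc9a3r1, a scaffold protein of proton exchangers, was at 0.46 (limma adjusted p = 0.0809).

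Genes with patterns most like those of Car9, Car12 and Car3 were ranked by the root mean square difference of centred log2 values over the 9 arrays. For Car9, whose own spread by this measure was 1.77, they were Epha3 (0.23), Sox11 (0.36), Prdm16 (0.39), Unc5c (0.42) and Rsad2 (0.43). For Car12, with a spread of 1.30, they were Hspa1a, Actn2, Klf5, Slc23a3 and Jag2, at 0.22 to 0.25. For Car3, with a spread of 1.52, they were Ces1d, Dgat2, Ptn, Igfbp5 and Orm1, at 0.27 to 0.47. Epha3 is an ephrin receptor, Actn2 a muscle actinin, Klf5 an epithelial transcription factor and Dgat2 an enzyme of triglyceride synthesis. These likenesses rest on 9 arrays that share the group difference, and PC61 replicate 4 weighs most in that of Car9.

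In the authors' deposited table the ratio of PC61 to PBS was 0.215, 0.276 and 0.368 for Car9 probes 1, 2 and 3, each with a Benjamini-Hochberg value under 0.05. In the authors' deposited table it was 4.71 and 4.35 for Car12 probes 1 and 2, 3.26 for Car3, and 0.410 and 0.442 for Car14 probes 1 and 2. This ratio is not the fold of mean log2 values used above, which was 0.148 for Car9 probe 1 and 0.197 for Car14 probe 1. The same 7 probes were past 0.05 there, with Car14 probe 1 at 0.0927 in the authors' deposited table. Limma run on the authors' normalized intensities gave these same adjusted values for every member probe. The deposited values come from the same arrays and are not a separate test.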

How the data were processed

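RNA from 4 PC61 and 5 PBS tumour tissue samples was measured on single-colour Illumina arrays. Per the labels' protocols, RNA was extracted with Trizol and RNeasy and biotin-labelled with the Ambion MessageAmp kit. The deposited raw table holds a linear intensity for 45273 probes, with detection p-values per the file headers. The authors' second table holds quantile-normalized intensities of 17382 probes. To these the authors added, per the file headers, a ratio, a p-value, its Benjamini-Hochberg form and a test statistic, which is a score with no fixed range. The headers do not say how the ratio was formed. The sources used here do not name the test, the scanner or the background handling. Limma on these intensities gave the deposited Benjamini-Hochberg values of the member probes, and both had 4106 probes under 0.05. The series value table holds the same deposited intensities and was not used.

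The raw table was the starting point, less 3 probes whose detection p lay outside 0 to 1. The neqc function of limma 3.58.1 (R 4.3.3) corrected background (normexp on detection p, offset 16) and quantile normalized on the log2 scale, which shrinks folds of dim probes and hides a shift shared by most genes. The 20190 probes detected (p under 0.05) on 4 or more arrays were kept, and lmFit and eBayes compared the groups, two-sided, with p adjusted over all of them. List genes were represented by their probe with the highest mean. Of the authors' probes 14942 had 1 symbol, 8 several and 2432 none here. Named genes were all member probes, the first 4 measured genes of each list, all measured transport and hypoxia signalling genes, and the 5 genes most like Car9, Car12 and Car3. Further list genes are marked where named. The members and lists were chosen with earlier results of these data known. The procedure was tested on simulated data. The number of arrays limits the precision.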

Additional observations from a re-analysis of the deposited data

Results flagged for a closer look

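Dixon's criterion at 95% marked 2 values as far from the other arrays of their group, among 22 tested groups of member probes, where chance marks about 1 in 20. Car9 probe 1 on PC61 replicate 4 was at 4.88, against 8.30 to 8.93 on the other PC61 arrays. Car9 probe 3 on PBS replicate 3 was at 6.16, against 6.78 to 7.01 on the other PBS arrays.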

How the results depend on the processing

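Over 213 refits of the 11 member probes, 185 kept direction and side of the threshold. Of all 20190 probes, 4041 (20.0%) passed. This count was 1796 of 45270 (3.97%) with no filter, 2679 of 10096 (26.5%) with 1 probe a gene and 6279 (31.1%) with array weights. It was 972 (4.81%, without PC61 replicate 3) to 5757 (28.5%, without PC61 replicate 2) when 1 array was left out. It moved over 1.5 times also without PC61 replicate 1 (2513, 12.4%) and PBS replicates 2, 4 and 5 (2393, 1990 and 1728, or 11.9%, 9.86% and 8.56%). Of the 4 member probes that fell, 2 passed when detection on all 9 arrays was required, a filter that leaves 8 member probes. Under that filter 20.9% of all probes passed. Of the same 4, 1 passed with no filter and 1 without PC61 replicate 3. With 1 probe a gene 7 member probes are left, of which 1, the only one left of those 4, passed as lower. Leaving out 1 array gave 1 to 5 lower and 2 to 3 higher member probes. Replicate numbers did not pair the samples (correlations of deviations -0.19, 0.04, -0.01 and -0.29). With the replicate block, 0 probes passed in limma, of all probes and of members lower or higher, while 5357 probes, 4 lower and 3 higher members had an unadjusted p under 0.05, and no Car9, Car12, Car3 or Car14 difference changed sign. PBS replicate 5 has no PC61 sample of its number, so the block gave the same differences as the fit without it (2.27 for Car12 probe 1). The block also leaves fewer degrees of freedom than the main fit. Signs turned for Car13 with 75th percentile scaling (-0.014) and over the arrays left out (-0.041 without PC61 replicate 4 to 0.12), and for Car11 with array weights (0.10) and over the arrays left out (-0.29 to 0.040, positive only without PC61 replicate 4). The cause was not tested. Car3 was at 2.05 with a normexp offset of 50 (limma adjusted p = 0.0530). Calls over all probes were 53.6% higher, and 64.2% with cyclic loess. A slide block was not run, since the headers used here give no slides. Differences of dim probes (Car2, Car9 probes 2 and 3, Car14 probe 2) are limited by background.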
